A study of Mus musculus with 7 samples.

Results

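Transcripts of 40 genes of the Myc network and of ribosome biogenesis were examined in erythroblasts that lacked SOD2, the mitochondrial enzyme that converts superoxide to hydrogen peroxide. The genes were taken by symbol from a list that was chosen with earlier results of these data known. Their shares beside those of all genes are therefore descriptive. Each gene was represented by the probe set with the highest mean log2 level over the 7 arrays among those that the platform annotation matched to that gene alone. By this rule 39 of the 40 were measured, out of 18193 genes with a probe set of their own, and they had 83 probe sets in all. Mrto4, the remaining gene, had no probe set matched to it alone.

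The 3 Sod2-/- samples (replicates 31, 35 and 39) and the 4 Sod2+/+ samples (replicates 17, 29, 33 and 37) were TER-119+ CD71+ erythroblasts sorted from marrow and hybridized to an Affymetrix mouse array. Both groups came from irradiated C57BL/6 hosts of the congenic Ly5.1 type, 11 to 15 weeks old at transplant, that had received fetal liver cells of littermate fetuses from matings of heterozygous B6-Sod2tm1Cje mice. Thus Sod2-/- refers to the donor blood cells in a host with its own Sod2 intact, and host cells that survived irradiation may remain in either group. A further Sod2-/- array that the study describes was not used here. The labels do not say if the arrays are of different animals, so p-values cover the spread among these samples alone, which may be technical. Sod2 itself had log2 levels of 8.09 to 8.61 in Sod2-/- and 8.20 to 8.62 in Sod2+/+ samples, and since some of its probe sets lie outside the deleted exon these values do not check the genotype. Array medians were 4.48 to 4.54 in Sod2-/- and 4.45 to 4.49 in Sod2+/+ samples. The 9 measured erythroblast markers had mean log2 levels of 10.05 to 13.06. Sod2-/- replicates 31 and 39 were run on chips of one lot (lot B) and the other 5 samples on chips of another (lot A). Fluidics station 1 held Sod2-/- replicate 31 with Sod2+/+ replicates 17 and 29, and station 2 the other 4 samples.

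Ribosomes are built in the nucleolus, where RNA polymerase I transcribes the precursor of ribosomal RNA, small nucleolar ribonucleoproteins (snoRNPs) guide its methylation and pseudouridylation, and assembly factors fold and cut it into the small and large subunits. Myc, paired with its partner Max, activates many of the genes concerned by binding the E-box, whereas Mxi1 and Mxd4 compete for Max and repress. Erythroblasts make most of their ribosomes early and shut nucleolar transcription down as they mature. By flow cytometry the study reports a larger share of immature erythroblasts in Sod2-/- marrow, and the cells sorted for the arrays pooled several stages. The part of stage in the values below was not tested.

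The promoter sequences of the genes are shown first because the E-box is the site at which the Myc network acts. RefSeq promoters of GRCm38.p6, which reach from 250 bases before to 50 bases after each start site, were at hand for 34 of the 40 genes. The E-box CACGTG, which reads the same on both strands, occurred in the promoters of 7 of these 34 genes (20.6%), namely Max, Mxd4, Wdr43, Utp20, Nop2, Pes1 and Nle1, against 8.09% of the 27025 genes in the promoter table and 7.15% of its 32851 promoters. In the windows of 30 bases below the E-box is in capitals. It began 3 bases before the start site in Max (chr12:76962234-76962263, minus strand), 219 bases before it in Mxd4 (chr5:34187912-34187941, minus strand) and 60 bases before it in Nop2 (chr6:125131811-125131840, plus strand). It began at position 18 after the start in Wdr43 (chr17:71616220-71616249, plus strand), at position 38 in Utp20 (chr10:88826765-88826794, minus strand) and at position 24 in Nle1 (chr11:82908355-82908384, minus strand), with the start site itself as position 1.
Max: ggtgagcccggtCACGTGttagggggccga
Mxd4: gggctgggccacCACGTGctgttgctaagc
Nop2: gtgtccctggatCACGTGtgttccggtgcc
Wdr43: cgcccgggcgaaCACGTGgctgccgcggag
Utp20: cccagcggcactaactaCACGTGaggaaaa
Nle1: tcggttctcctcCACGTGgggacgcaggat

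Of the 4 genes that passed the test between genotypes, described further on, Ncl and Pes1 had promoters in the table, and these are shown whole. The Pes1 promoter (chr11:3963725-3964024, plus strand) holds an E-box, in capitals, that begins at position 3 after the start site. The Ncl promoter (chr1:86359406-86359705, minus strand) does not hold these letters in this window.
Pes1: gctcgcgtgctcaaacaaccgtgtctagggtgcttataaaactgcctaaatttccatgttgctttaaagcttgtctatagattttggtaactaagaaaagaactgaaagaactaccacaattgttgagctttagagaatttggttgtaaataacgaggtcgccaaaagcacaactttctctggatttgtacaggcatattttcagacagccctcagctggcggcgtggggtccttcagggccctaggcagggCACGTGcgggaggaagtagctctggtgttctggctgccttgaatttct
Ncl: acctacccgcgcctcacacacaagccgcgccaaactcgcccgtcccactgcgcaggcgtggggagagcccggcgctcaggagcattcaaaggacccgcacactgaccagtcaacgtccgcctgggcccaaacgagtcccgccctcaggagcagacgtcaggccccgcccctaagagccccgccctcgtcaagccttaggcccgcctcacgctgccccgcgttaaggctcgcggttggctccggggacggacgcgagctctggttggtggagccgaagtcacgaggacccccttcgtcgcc
A match is a description of the letters and not a measured binding site. The core motif of ETS factors, CCGGAAG, searched on both strands, occurred in 9 of the 34 genes (26.5%), namely Nolc1, Nhp2, Gar1, Polr1c, Polr1e, Heatr1, Nop2, Nip7 and Ebna1bp2, against 9.93% of all genes in the table and 8.86% of its promoters. Neither motif contains the other, and only Nop2 held both. Of the 7 genes with an E-box 1 passed the test between genotypes, and of the 9 with the ETS core 0 passed. By the same test 4.47% of all genes were lower and 0.412% higher, and counts this small cannot tell the motifs apart.

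In Sod2-/- erythroblasts 4 of the 39 genes were lower (10.3%) and 0 were higher. Those lower were Fbl, Npm1, Ncl and Pes1, and they are the nucleolar methyltransferase fibrillarin, the chaperones nucleophosmin and nucleolin, and a large subunit assembly factor. Calls were made with limma at an adjusted p under 0.05, adjusted over all 45037 probe sets. By the same rule 4.47% of all genes were lower and 0.412% were higher (813 and 75 genes), a split that was 506 and 260 after quantile normalization of the deposited values. At a fold change of 1.5 or more, 2 of the 39 were lower (Fbl and Npm1), against 2.8% of all genes. At an unadjusted p under 0.05, 19 of the 39 were lower and 0 higher, against 18.4% lower and 6.68% higher of all genes. After quantile normalization these counts of the 39 were 14 lower and 3 higher, and no share of all genes at this cut is given for that fit. The same 4 genes were called lower there, against 2.78% of all genes. Levels in bulk RNA cannot tell fewer cells of a type from less RNA per cell.

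Most of the 39 genes lay below zero difference, by small amounts. The log2 difference (Sod2-/- minus Sod2+/+) was negative in 32 and positive in 7, with a median of -0.20, against 0.02 over all genes. In 15 of them (38.5%) every Sod2-/- value was below every Sod2+/+ value, against 14.8% of all genes, and in 0 was every Sod2-/- value above, against 7.19% of all genes. After quantile normalization 28 were negative and the median was -0.12, with Ubtf, Bysl, Bop1 and Gnl3 on the other side of zero (0.04 to 0.07). The count of genes lower was 7 without Sod2+/+ replicate 33, 0 without Sod2+/+ replicate 29, Sod2+/+ replicate 37 or Sod2-/- replicate 35, and 3 or 4 without each of the other 3 samples. Of all genes 0.786% were lower without Sod2+/+ replicate 29, 0.605% without Sod2+/+ replicate 37 and 0.352% without Sod2-/- replicate 35. The share was 4.09% without Sod2+/+ replicate 33 and 2.31% without Sod2+/+ replicate 17. It was 3.63% without Sod2-/- replicate 31 and 1.3% without Sod2-/- replicate 39.

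**Figure D1:**
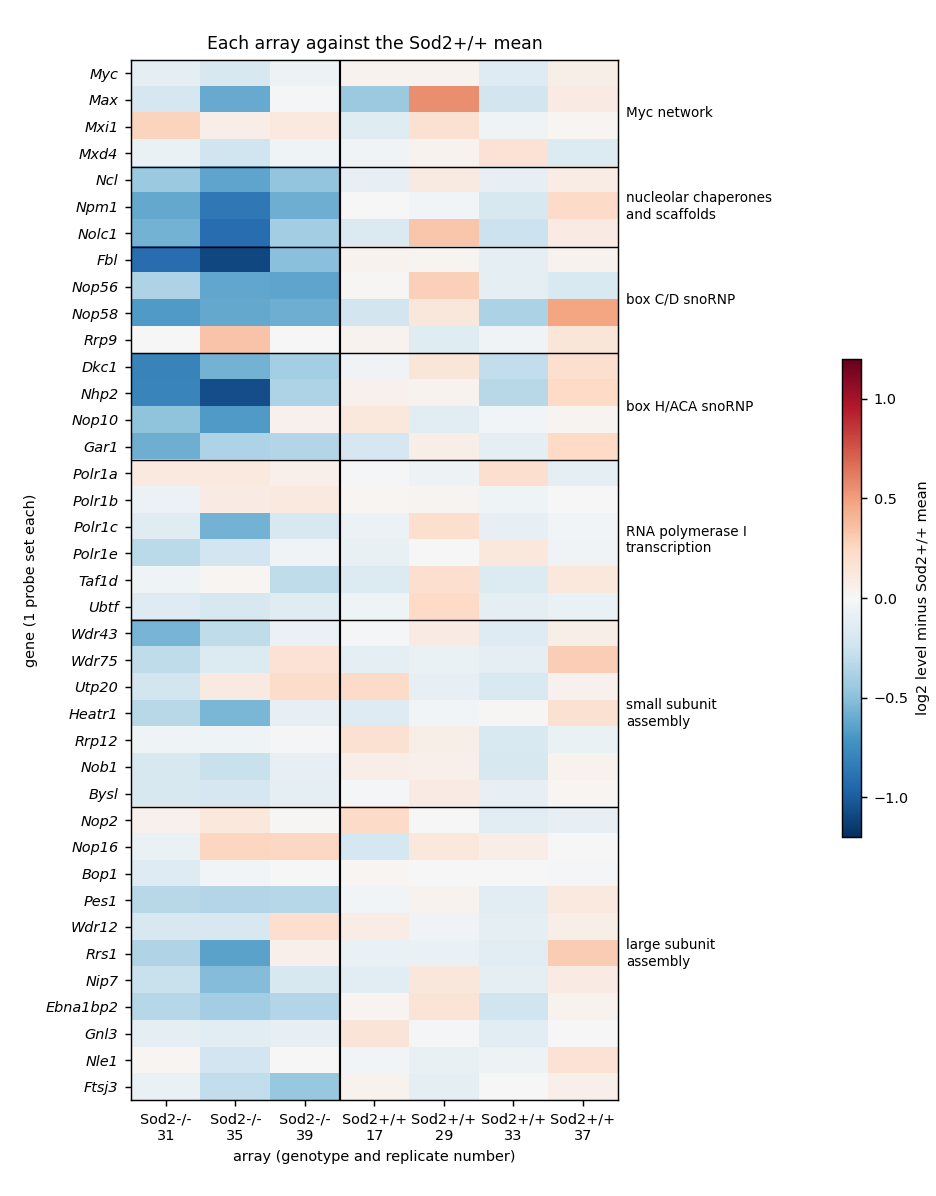
Log2 level of each of the 39 measured genes (rows, grouped by role) on each array (columns, the 3 Sod2-/- arrays left of the 4 Sod2+/+ arrays), as the difference from that gene's Sod2+/+ mean, with blue for lower and red for higher. The blue blocks sit in the nucleolar chaperones and the snoRNP proteins on all 3 Sod2-/- arrays, apart from Rrp9 and, in replicate 39, Nop10. Among the polymerase and assembly rows Pes1 and Ebna1bp2 are also blue on all 3, and single cells such as Polr1c and Rrs1 in replicate 35 are as dark, while others are pale or red.

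The arrays did not share the shift evenly. The median over the 39 genes of the difference from the Sod2+/+ mean was -0.21, -0.27 and -0.10 in Sod2-/- replicates 31, 35 and 39. In Sod2+/+ replicates 17, 29, 33 and 37 it was -0.03, 0.04, -0.11 and 0.06. Sod2+/+ replicate 33 was thus slightly below Sod2-/- replicate 39, and the groups overlapped on this measure. The number of the 39 genes below their Sod2+/+ mean was 34, 31 and 28 in the same Sod2-/- samples and 23, 13, 32 and 10 in the Sod2+/+ samples. Within the nucleolar chaperones, both snoRNP classes and, narrowly, the RNA polymerase I genes, the medians of the class did not overlap between genotypes, as given with each class.

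Among the Myc network, 0 of 4 genes passed the test in either direction. Myc (chromosome 15), the transcription factor itself, had log2 levels of 4.07, 3.98 and 4.11 in Sod2-/- samples and of 4.21, 4.21, 4.02 and 4.25 in Sod2+/+ samples. These values lay under the array medians, and Sod2+/+ replicate 33 fell among the Sod2-/- samples. The difference of -0.12 (SE 0.077, 95% interval -0.30 to 0.05, adjusted p = 0.438 by limma) did not exceed the spread between samples. Max, the obligate partner of Myc, varied more within Sod2+/+ than between genotypes. Its levels were 6.66, 6.27 and 6.85 in Sod2-/- samples and 6.43, 7.43, 6.65 and 6.97 in Sod2+/+ samples, a difference of -0.28 (SE 0.23, adjusted p = 0.570).

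Mxi1, a repressor that competes for Max, ran at 10.39, 10.19 and 10.24 in Sod2-/- samples and at 9.97, 10.30, 10.06 and 10.14 in Sod2+/+ samples. The groups overlapped through Sod2+/+ replicate 29 and the difference was 0.16 (SE 0.092, adjusted p = 0.403). On the other Mxi1 probe set every Sod2-/- value was above every Sod2+/+ value, with a difference of 0.44 (SE 0.12) and an adjusted p of 0.0806. Mxd4, a repressor of the same family, differed by -0.12 (SE 0.094, adjusted p = 0.533), and its other 3 probe sets by -0.07 to 0.05. Among 14 further Myc network genes, from Mycn and Mycl to Mnt, Mga and the Mlx branch, 0 passed the test. At an unadjusted p under 0.05, 5 of the 14 were lower and 1 higher, against 18.4% and 6.68% of all genes. The largest differences there were -0.53 for Mycbp, a Myc-binding protein (SE 0.12, adjusted p = 0.05005, just above the threshold), and -0.43 for Mxd3, a repressor of the Mxd family (SE 0.14, adjusted p = 0.122).

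Of the nucleolar chaperones and scaffolds 2 of 3 genes were lower and all 3 were separated between genotypes, against 4.47% and 14.8% of all genes. The 2 lower genes had mean log2 levels above 8, where 11.7% of other genes were lower. The median of the 3 genes stood at -0.86 to -0.47 in Sod2-/- samples and at -0.19 to 0.11 in Sod2+/+ samples. Ncl encodes nucleolin, an abundant RNA-binding protein of the nucleolus (chromosome 1). Its log2 levels were 9.80, 9.61 and 9.77 in Sod2-/- samples and 10.15, 10.36, 10.15 and 10.34 in Sod2+/+ samples. All 3 Sod2-/- samples were below the lowest Sod2+/+ sample, 1.43-fold lower on average (log2 difference -0.52, SE 0.085, adjusted p = 0.0245). Npm1 encodes nucleophosmin, a histone and ribosomal protein chaperone (chromosome 11). Its levels were 8.43, 8.18 and 8.45 in Sod2-/- samples and 9.04, 9.005, 8.85 and 9.28 in Sod2+/+ samples. The groups were again apart, 1.61-fold lower in Sod2-/- (log2 difference -0.69, SE 0.11, adjusted p = 0.0240).

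Nolc1, a scaffold that shuttles snoRNPs to the nucleolus (chromosome 19), had levels of 5.32, 4.97 and 5.47 in Sod2-/- samples and of 5.72, 6.22, 5.63 and 5.99 in Sod2+/+ samples. The groups did not overlap, but the difference of -0.63 (SE 0.16) missed the threshold with an adjusted p of 0.0748. Of the other probe sets, that of Npm1 was lower as well (1.99-fold, SE of the log2 difference 0.17, adjusted p = 0.0271), and so was 1 of the 4 others of Ncl (-0.35, adjusted p = 0.0293). The remaining 3 of Ncl differed by -0.52, -0.07 and 0.00 and did not pass. Npm1 has processed pseudogenes and its probe sets may share signal with them.

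Both calls were lost on leaving out some single samples. Ncl lost its call without Sod2+/+ replicate 29 (adjusted p = 0.0617), Sod2+/+ replicate 37 (0.0665), Sod2-/- replicate 35 (0.0859) or Sod2-/- replicate 39 (0.0544), and over all 21 alternatives its adjusted p ran from 0.0179 to 0.623 and its difference from -0.64 to -0.29. Npm1 lost its call without Sod2+/+ replicate 29 (0.0594), Sod2+/+ replicate 37 (0.0510) or Sod2-/- replicate 35 (0.0823), with adjusted p from 0.0145 to 0.543 and differences from -0.86 to -0.45.

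The box C/D snoRNP proteins, which carry out the methylation of ribosomal RNA, had 1 of 4 genes lower and 3 of 4 separated. Of all genes 4.47% were lower and 14.8% were separated in this direction. The lower gene, Fbl, had a mean log2 level above 8, where 11.7% of other genes were lower. The median deviation of the 4 genes was -0.62 to -0.53 in Sod2-/- samples and -0.11 to 0.09 in Sod2+/+ samples. Fbl, the methyltransferase fibrillarin (chromosome 7), had levels of 7.60, 7.42 and 8.01 in Sod2-/- samples and of 8.55, 8.55, 8.40 and 8.55 in Sod2+/+ samples. Sod2-/- replicate 39 was the nearest to the Sod2+/+ samples and still below all of them. The difference was -0.83 (SE 0.13, 1.78-fold lower, adjusted p = 0.0221), and the other Fbl probe set gave -1.01 (SE 0.090, adjusted p = 0.00388). Fbl lost its call without Sod2+/+ replicate 29 (0.0593), Sod2+/+ replicate 37 (0.0627) or Sod2-/- replicate 35 (0.0664), while its adjusted p over the alternatives ran from 0.00766 to 0.543 and its difference from -1.09 to -0.59.

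Nop56 and Nop58, the scaffold proteins of the same particle, were separated between genotypes without passing the test. Nop56 had levels of 7.52, 7.27 and 7.26 in Sod2-/- samples and of 7.91, 8.18, 7.78 and 7.71 in Sod2+/+ samples. Its difference of -0.54 (SE 0.12) had an adjusted p of 0.0509, just above the threshold. It passed with the fluidics station as a block (-0.49, adjusted p = 0.0379), among brighter probe sets alone (0.0317) and as the mean of its probe sets (0.0352), in a range of 0.0317 to 0.610 over the alternatives. Nop58 had 4.72, 4.78 and 4.81 in Sod2-/- samples and 5.18, 5.53, 5.01 and 5.87 in Sod2+/+ samples, with a difference of -0.63 (SE 0.18, adjusted p = 0.0983). Its Sod2-/- values lay close together and its Sod2+/+ values were widely spread. Rrp9, which binds the U3 snoRNA, had a difference of 0.12 in the other direction that did not pass the test (SE 0.11, adjusted p = 0.608).

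The box H/ACA snoRNP proteins, which convert uridine to pseudouridine in ribosomal RNA, had 0 of 4 genes past the threshold. All 4 had an unadjusted p under 0.05 in the lower direction, against 18.4% of all genes, and 3 were separated, against 14.8%. Their median deviation was -0.69 to -0.36 in Sod2-/- samples and -0.21 to 0.22 in Sod2+/+ samples. Dkc1, the pseudouridine synthase dyskerin (chromosome X), had levels of 7.06, 7.30 and 7.45 in Sod2-/- samples and of 7.82, 8.01, 7.56 and 8.06 in Sod2+/+ samples. Here Sod2+/+ replicate 33 was the lowest of its group, and without it Dkc1 passed (-0.69, adjusted p = 0.0338, against -0.59, SE 0.14 and 0.0557 with all samples). Nhp2, a core protein of the particle, had 6.86, 6.59 and 7.29 in Sod2-/- samples and 7.71, 7.70, 7.33 and 7.89 in Sod2+/+ samples. Sod2-/- replicate 39 and Sod2+/+ replicate 33 nearly met, and the difference of -0.74 (SE 0.18, adjusted p = 0.0599) passed without either of them (0.0449 without Sod2-/- replicate 39 and 0.0450 without Sod2+/+ replicate 33). Gar1, another core protein, differed by -0.44 (SE 0.12, adjusted p = 0.0793). Nop10, the smallest core protein, differed by -0.37 (SE 0.16, adjusted p = 0.238), and its groups overlapped because Sod2-/- replicate 39 stood at 8.77 against 8.24 and 8.04 in the other Sod2-/- samples. Without Sod2-/- replicate 39 Nop10 passed (-0.58, adjusted p = 0.0465). Over the alternatives the adjusted p ran from 0.0322 to 0.543 for Dkc1, from 0.0310 to 0.543 for Nhp2 and from 0.0465 to 0.777 for Nop10.

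**Figure D2:**
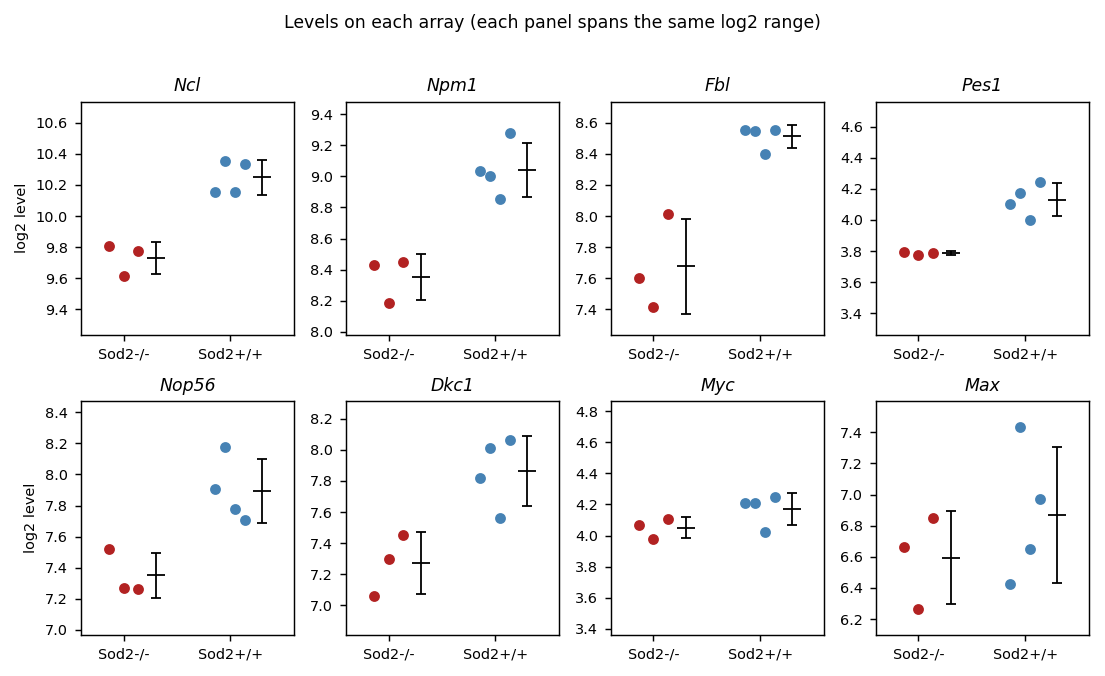
Log2 level on each array of 8 genes, with Sod2-/- samples (red, n = 3) left of Sod2+/+ samples (blue, n = 4) and the mean with its SD in black beside them. Points do not overlap for Ncl, Npm1, Fbl, Pes1, Nop56 and Dkc1, of which the first 4 passed the test, and they overlap for Myc and Max.

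The genes of RNA polymerase I and its initiation factors showed 0 of 6 past the threshold, and 2 of 6 were separated (33.3%, beside 14.8% of all genes). Their group median was -0.11 to -0.09 in Sod2-/- samples against -0.07 to 0.12 in Sod2+/+ samples. Polr1a, the largest subunit, differed by 0.10 on its brightest probe set and by -0.44 on the next (adjusted p = 0.594 and 0.176), so its probe sets disagreed in sign. Polr1b, the other large catalytic subunit, differed by 0.05. Polr1c, a subunit shared with RNA polymerase III, had levels of 7.18, 6.76 and 7.14 in Sod2-/- samples and of 7.26, 7.53, 7.23 and 7.30 in Sod2+/+ samples. Its groups were narrowly apart (-0.30, SE 0.12, adjusted p = 0.207), and its other probe set gave -0.54 (adjusted p = 0.0645). Ubtf, which bends the promoter of the ribosomal RNA genes, was also separated but by only -0.16 (SE 0.094, adjusted p = 0.389). Polr1e, an accessory subunit, differed by -0.20 and Taf1d, a subunit of the selectivity factor, by -0.11.

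Factors of small subunit assembly showed 0 of 7 past the threshold, and 1 of 7 was separated (14.3%, beside 14.8% of all genes). This was Bysl, which acts late in small subunit maturation, at 7.29, 7.29 and 7.38 in Sod2-/- samples and 7.46, 7.59, 7.39 and 7.51 in Sod2+/+ samples (-0.17, SE 0.071, adjusted p = 0.242). The groups nearly met at Sod2-/- replicate 39 and Sod2+/+ replicate 33, and the sign turned after quantile normalization (0.07). Heatr1 and Wdr43, components of the early processome that bind the nascent precursor, differed by -0.32 (SE 0.12, adjusted p = 0.175) and -0.31 (SE 0.12, adjusted p = 0.181). Nob1, the nuclease that makes the final cut of the small subunit RNA, differed by -0.19 (SE 0.087, adjusted p = 0.282). Wdr75 and Utp20, of the same processome, and Rrp12, an export factor, differed by -0.10, 0.04 and -0.04. Adjusted p-values of these 3 were 0.751, 0.917 and 0.854.

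Factors of large subunit assembly showed 1 of 11 lower (9.09%, beside 4.47% of all genes). Pes1, which forms a complex with Bop1 and Wdr12 needed for processing of the large subunit RNA, had levels of 3.80, 3.78 and 3.79 in Sod2-/- samples and of 4.10, 4.17, 4.00 and 4.25 in Sod2+/+ samples. All values were under the array medians, where signal is dim, and the Sod2-/- values were almost equal. The difference was -0.34 (SE 0.074, 1.27-fold lower, adjusted p = 0.0455), and the other Pes1 probe set, also dim, gave -0.03 (adjusted p = 0.862). The call was lost without any 1 sample other than Sod2+/+ replicate 33 (adjusted p 0.0784 to 0.143), with array weights (0.0515), with the station (0.0757) or the chip lot (0.176, resting on 1 Sod2-/- sample) as a block and with 32 added to each linear value (-0.11, 0.0896). Over the 20 alternatives that kept this probe set its adjusted p ran from 0.0286 to 0.664. The partners of Pes1 did not pass the test, with Bop1 at -0.06 (SE 0.065, adjusted p = 0.648) and Wdr12 at -0.06 (SE 0.11, adjusted p = 0.817).

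Ebna1bp2, a nucleolar factor for the same subunit, had 5.16, 5.08 and 5.15 in Sod2-/- samples and 5.53, 5.66, 5.26 and 5.54 in Sod2+/+ samples. The groups were apart, with a difference of -0.37 (SE 0.096, adjusted p = 0.0753) that passed without Sod2+/+ replicate 33 (-0.45, adjusted p = 0.0301), in a range of 0.0301 to 0.597 over the alternatives. Its other probe sets gave 0.07 and 0.02. Nip7, which acts in pre-ribosomal RNA processing, was separated as well (-0.33, SE 0.11, adjusted p = 0.133), but on its other probe set every Sod2-/- value was above every Sod2+/+ value (0.22, SE 0.064, adjusted p = 0.0979). The probe sets of Ebna1bp2 and Nip7 thus did not give the same direction. Rrs1, Ftsj3 and Gnl3 differed by -0.31, -0.27 and -0.11, Nle1 by -0.07, Nop2 by 0.06 and Nop16 by 0.14, with adjusted p-values of 0.161 to 0.772. Of these, Ftsj3 and Nop2 are ribosomal RNA methyltransferases, Gnl3 is the nucleolar GTPase nucleostemin, and Rrs1, Nle1 and Nop16 act in the assembly of the large subunit.

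**Figure D3:**
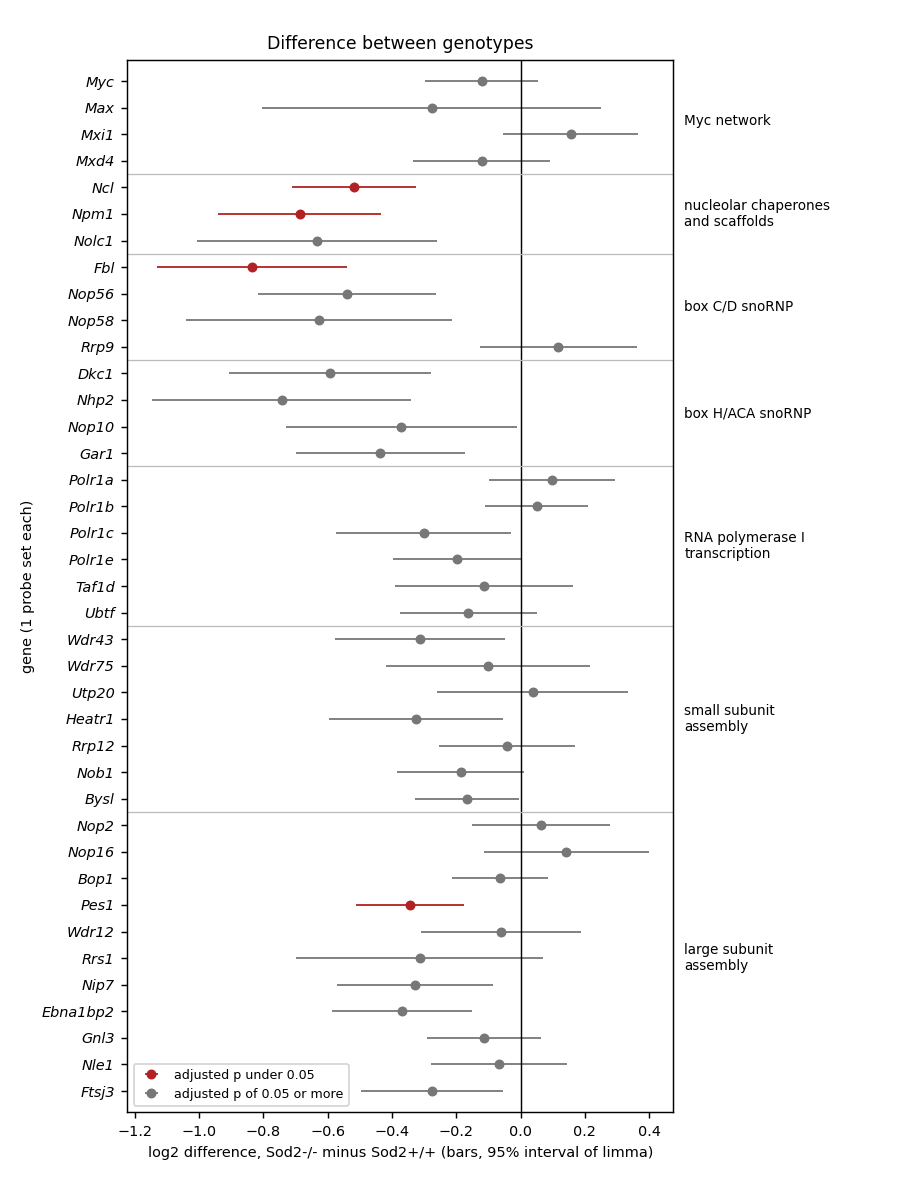
Log2 difference of each gene (Sod2-/- minus Sod2+/+) with its 95% interval from limma, in the order of the roles, with genes past the threshold in red. Red points are Ncl, Npm1, Fbl and Pes1; the snoRNP and chaperone rows run from -0.83 to -0.37 except Rrp9 at 0.12, and the polymerase and assembly rows other than Pes1 lie between -0.37 and 0.14.

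Over all 83 probe sets of the 39 genes, 7 were lower (8.43%) and 0 higher, against 2.83% lower and 0.566% higher of all probe sets tested. The lower ones were both probe sets of Npm1 and of Fbl, a pair of Ncl and 1 of Pes1. The 44 probe sets not used for a gene's main value included 28 with a negative difference.

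Some of the other genes of the pathway were lower as well. Of 143 measured genes in 6 lists, 19 were lower (13.3%) and 0 higher, against 4.47% and 0.412% of all genes. The median difference of the 143 was -0.22. At an unadjusted p under 0.05, 67 were lower and 3 higher, beside the 18.4% and 6.68% of all genes given above. In 61 (42.7%) every Sod2-/- value was below every Sod2+/+ value, against 14.8% of all genes. In 3 every Sod2-/- value was above, against 7.19% of all genes. The count of 19 lower was 5 with the chip lot as a block, resting on 1 Sod2-/- sample. It ranged from 1 (without Sod2-/- replicate 35) to 21 (without Sod2+/+ replicate 33) on leaving out 1 sample.

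Among further snoRNP factors 3 of 11 were lower. Ruvbl1 and Ruvbl2, the ATPases that load snoRNP proteins, fell by 0.79 (SE 0.14, adjusted p = 0.0282) and 0.68 (SE 0.087, adjusted p = 0.0133) on the log2 scale. Ruvbl2 had levels of 6.51, 6.72 and 6.75 in Sod2-/- samples and of 7.40, 7.22, 7.30 and 7.43 in Sod2+/+ samples, tightly grouped within each genotype. Znhit3, an assembly factor of box C/D particles, fell by 0.42 (SE 0.070, adjusted p = 0.0258). Ruvbl1 and Ruvbl2 also belong to chromatin remodelling complexes.

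Of further RNA polymerase I genes 2 of 10 were lower, and both encode subunits that all 3 nuclear polymerases share. Polr2e fell by 0.51 (SE 0.092, adjusted p = 0.0294) and Polr2f by 0.67 (SE 0.15, adjusted p = 0.0488). Of 46 further small subunit factors 7 were lower, among them Imp3, a protein of the U3 particle (-0.78, SE 0.16, adjusted p = 0.0406), with the processome proteins Wdr46 (-0.62, SE 0.082, adjusted p = 0.0138) and Dcaf13 (-0.62, SE 0.12, adjusted p = 0.0330). Of 47 large subunit factors 5 were lower, among them the helicase Ddx27 (-0.84, SE 0.18, adjusted p = 0.0424), Rrp1 (-0.65, SE 0.13, adjusted p = 0.0363) and Brix1 (-0.63, SE 0.13, adjusted p = 0.0380). Of the RNA exosome, which trims ribosomal RNA from its end, 2 of 15 were lower. C1d, a cofactor of the nuclear exosome, had 6.47, 6.06 and 6.23 in Sod2-/- samples and 7.14, 7.58, 7.16 and 7.91 in Sod2+/+ samples. It was 2.29-fold lower in Sod2-/- (-1.19, SE 0.19, adjusted p = 0.0231), and Exosc8, a subunit of the exosome ring, 1.63-fold lower (-0.70, SE 0.13, adjusted p = 0.0299). The median difference of each list was -0.35 for the exosome, -0.23 for the small subunit, -0.21 for RNA polymerase I, -0.19 for snoRNP factors, -0.17 for the large subunit and -0.16 for the Myc network.

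How bright a probe set was moved with the difference, also outside the pathway. Among genes with a mean log2 level of 6 to 8 the median difference was -0.30 for the 13 ribosome and Myc network genes and -0.21 for the 3617 other genes, and 12.2% of those other genes were lower. At a level of 8 or more it was -0.45 for 6 genes and -0.24 for 1868 others, of which 11.7% were lower. Between 4 and 6 it was -0.12 for 18 genes and 0.05 for 9586 others. After quantile normalization the medians were -0.09 against -0.02 from 6 to 8, -0.24 against -0.05 from 8 upward and -0.14 against 0.03 from 4 to 6. The level at the 95th percentile of an array was 8.20 to 8.42 in Sod2-/- and 8.42 to 8.71 in Sod2+/+ samples. The part of this shift in the lower values of the genes described here was not tested.

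**Figure D4:**
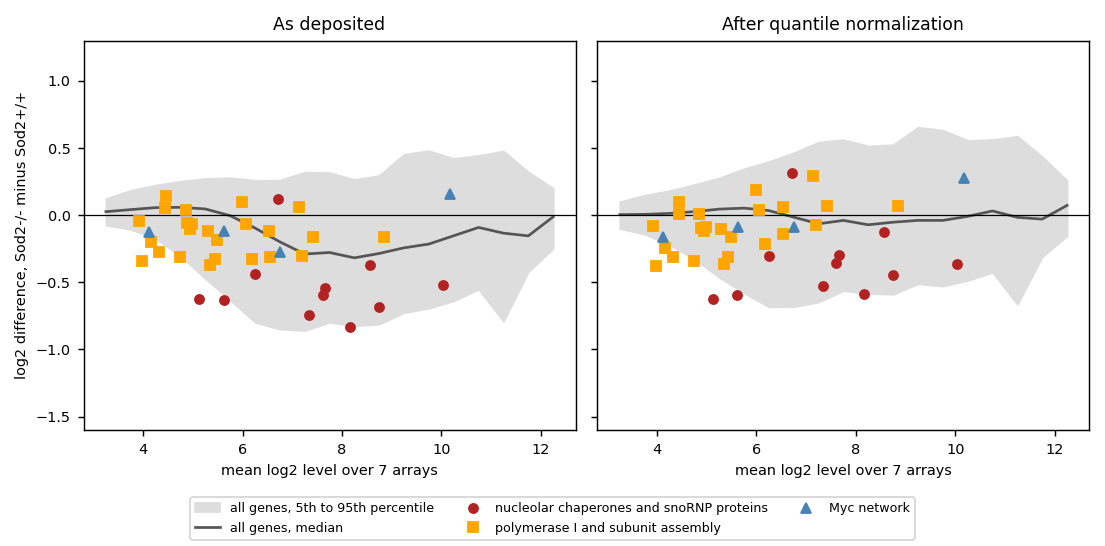
Log2 difference (Sod2-/- minus Sod2+/+, y axis) against the mean log2 level over the 7 arrays (x axis) for the 39 genes by role, over the median and the 5th to 95th percentile of all genes in steps of 0.5, as deposited (left) and after quantile normalization (right). The median of all genes dips below zero above a level of 6 as deposited and runs near zero after quantile normalization, where most nucleolar chaperones and snoRNP proteins still lie below it.

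The genotypes also differed in transcripts of some other blood cells and in a measure of RNA integrity. Of 9 measured B lineage markers 6 were lower in Sod2-/- samples (median difference -0.78), against 4.47% of all genes. The summed linear level of the 9 was 310.1 to 351.7 in Sod2-/- and 551.6 to 708.5 in Sod2+/+ samples. Cd79a and Cd79b, the signalling chains of the B cell receptor, were 3.43-fold (adjusted p = 0.00284) and 3.00-fold (adjusted p = 0.00543) lower, and Ms4a1, Vpreb1, Vpreb3 and Blnk were 2.40-fold (adjusted p = 0.0150), 1.70-fold (adjusted p = 0.00759), 1.74-fold (adjusted p = 0.0150) and 1.72-fold (adjusted p = 0.0342) lower. Pax5 and Ebf1, transcription factors of the lineage, did not pass and had mean log2 levels of 4.60 and 4.47 in Sod2-/- and 4.62 and 4.48 in Sod2+/+ samples, near the array medians. Igll1 did not pass either (-0.31, adjusted p = 0.288 by limma). Of 12 neutrophil markers 0 passed the test and 10 were lower at an unadjusted p under 0.05 (median -0.87), against 18.4% of all genes. Their sums were 16570 to 34595 in Sod2-/- and 34797 to 43518 in Sod2+/+ samples. Of 10 macrophage markers 0 passed, and their sum was 1465 in Sod2-/- replicate 39, against 392 to 498 in the other Sod2-/- and 476 to 568 in the Sod2+/+ samples. Of 5 measured T cell markers 0 passed (median 0.09), and of 5 of megakaryocytes and platelets 0 passed (median -0.07). Of 7 early progenitor markers 1 was lower, the transcription factor Myb (-1.24, adjusted p = 0.0303), and the erythroblast markers had a median difference of 0.07 with 0 of 9 past the threshold. The 3' minus 5' log2 difference of Gapdh, which rises with RNA degradation, was 1.10 to 1.21 in Sod2-/- and 1.24 to 1.45 in Sod2+/+ samples, and that of beta-actin 0.69 to 0.78 and 0.67 to 0.87. The part of these cell types and of RNA quality in the lower values was not tested.

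Chip lot and fluidics station were examined as batches. Chip lot A held 1 Sod2-/- sample, replicate 35, with the 4 Sod2+/+ samples, so within it the spread came from the Sod2+/+ samples alone and the lone Sod2-/- sample was assumed to vary like them. There 1 of the 39 genes was lower, Fbl (-1.09, adjusted p = 0.0293), while the values were -0.64 (0.0727) for Ncl, -0.86 (0.0650) for Npm1 and -0.36 (0.216) for Pes1. Station 1 likewise held 1 Sod2-/- sample. Within station 1 and within station 2 limma called 0 of all 18193 genes, and 0 of the 39. In station 1 the differences of Ncl, Npm1, Fbl and Pes1 were -0.45, -0.59, -0.95 and -0.34, and in station 2 they were -0.55, -0.75, -0.76 and -0.34. At an unadjusted p under 0.05, 8 of the 39 were lower in station 2, and no share of all genes at this cut is given for that fit. With the lot as a block the differences were those within lot A, again of replicate 35 against the Sod2+/+ samples, since lot B held no Sod2+/+ sample; lot B added only to the spread, and 3 genes were lower (Ncl, Npm1 and Fbl). With the station as a block 4 were lower (Ncl, Npm1, Fbl and Nop56).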

How the data were processed

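RNA of 7 sorted samples was measured on Affymetrix Mouse Genome arrays. The deposited values are log2 levels, which the authors obtained with RMA (robust multi-array averaging: background correction, scaling to a shared distribution, summary of the probes in a set), by the methods and the submitters' notes. Those notes also name GCOS 1.3.037. The methods describe RMA of the study's arrays with a further Sod2-/- array among them. No source used here says if the deposited values come from that run. Values were taken as deposited, and in that form the arrays still differed in distribution. Their 95th percentiles were 8.20 to 8.42 in Sod2-/- and 8.42 to 8.71 in Sod2+/+ samples. After removal of 64 control probe sets from 45101, the genotypes were compared on 45037 with limma 3.58.1 (R 4.3.3; lmFit, then eBayes, both at default settings), p-values were adjusted by Benjamini and Hochberg over all 45037, and the threshold was 0.05. By the platform annotation 34945 are matched to 1 gene, 932 to several and 9160 to none. Every member was named, and from each pathway list the called genes with the largest changes (up to 3), or the 2 with the largest changes in a list that had no call. The members and lists were chosen with earlier results of these data known. Chip lot and station came from the settings text of each array. Alternatives were both forms of the methods' t-test (equal or unequal variances), array weights, eBayes with trend and robust settings, centring on array medians, quantile normalization, an offset of 32, brighter probe sets alone, the mean of a gene's probe sets, lot or station as a block, lot A or either station alone, and leaving out each sample. The script was tested on simulated data. Array weights used statmod 1.5.0, tables pandas 2.3.3 and figures matplotlib 3.10.9 (Python 3.11.15). With 7 arrays, precision is limited by their number.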

Additional observations from a re-analysis of the deposited data

Results flagged for a closer look

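Within the 4 Sod2+/+ samples, 5 of the 39 genes had 1 sample whose gap to the nearest other exceeded the share of the group's range that Dixon's test allows at the 95% level, and chance flags about 1 in 20 groups. In Sod2+/+ replicate 33, Myc stood at 4.021 (others 4.21 to 4.247), Fbl at 8.4 (others 8.545 to 8.553) and Nob1 at 5.382 (others 5.616 to 5.647), each the lowest of its group. In Sod2+/+ replicate 37, Wdr75 stood at 5.278 (others 4.874 to 4.906) and Rrs1 at 5.184 (others 4.748 to 4.801), each the highest of its group.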

How the results depend on the processing

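Fbl, Npm1 and Ncl had a negative difference under all 21 alternatives and Pes1 under the 20 that kept its probe set. Every Sod2-/- value of these genes was below every Sod2+/+ value, so leaving out samples or fitting a subset could not turn the sign. The t-tests, the eBayes settings and the fit of brighter probe sets reuse the same difference. Of 812 pairs of a gene and an alternative, 755 kept their side of the threshold, most of them without a call in either fit. Of the rest 44 lost a call, 13 gained one and 0 reversed a call. In 25 pairs a difference without a call in either fit changed sign. The count of the 39 genes lower, 4 with all samples as deposited, was 7 of 32 among brighter probe sets alone (11.1% of all brighter genes). It was 0 with either form of the methods' t-test, which called 2 and 0 of all 18193 genes lower. At an unadjusted p under 0.05 the t-tests had 14 and 12 of the 39 lower and limma 19. No share of all genes at this cut is given for the t-tests. The count was 0 with an offset of 32, 0 within station 2 and 0 to 7 on leaving out 1 sample. The count of pathway genes lower, 19, was 27 among brighter probe sets alone, 5 with the chip lot as a block, 0 with either t-test, 4 with the offset, 12 after quantile normalization, 4 within lot A, 0 within either station and 1 to 21 on leaving out 1 sample. The count of pathway genes higher was 1 with the mean of all probe sets, otherwise 0. The median difference was -0.29 over the 32 genes kept among brighter probe sets, whose own differences do not change, and -0.11 over the 39 with the offset. Other causes of these changes were not tested. Both lot fits rest on 1 Sod2-/- sample. No paired analysis was possible because the genotypes share no replicate numbers and the labels do not say which samples were sorted as parallel pairs. Dim probe sets, Myc and Pes1 among them, limit what these arrays can show.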
